A study of Mus musculus with 6 samples.

Results

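The transforming growth factor beta (TGF-beta) pathway was followed through 9 genes, namely the ligand *Tgfb1*, the receptors *Tgfbr1* and *Tgfbr2*, the signal transducers *Smad2*, *Smad3* and *Smad4*, the inhibitory *Smad7* and the corepressors *Ski* and *Skil*. They were taken by gene symbol from a table of 26216 gene names, as core genes of the pathway, by a rule that uses no measured value but was set with earlier results of these data known. All 9 were among the 13108 names that were tested, and none of them was listed more than once. The ligand *Tgfb1* was higher and the transducer *Smad3* lower in hematopoietic stem cells (HSCs) that lacked the lymphotoxin beta receptor (*Ltbr*), each by less than 1.5-fold, and the other 7 genes passed no test.

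RNA was sequenced from long-term and short-term HSCs (LT/ST-HSCs) of mouse bone marrow, in 3 *Ltbr*-/- and 3 Ly5.1 replicates. Both kinds of cell came from mixed chimeras, in which *Ltbr*-/- (CD45.2) and Ly5.1 (CD45.1) stem and progenitor cells had been given together to lethally irradiated Ly5.1/Ly5.2 recipients, and were sorted at week 6 as live (Annexin-V-), lineage-negative cells with sca1, c-kit and CD150 but without CD48. The *Ltbr*-/- cells carry a germline deletion in every cell of the donor, whereas Ly5.1 cells have intact *Ltbr* and differ from them also in the form of CD45. The cells of 6 chimeras were pooled to 3 replicates, so that each value is an average over animals. Donors of *Ltbr*-/- replicate 1 were 13 weeks old, those of replicate 2 were 10 weeks old and those of replicate 3 were 10 to 13 weeks old. Donors of the Ly5.1 replicates were 7 to 13 weeks old, so that age and genotype cannot be told apart entirely.

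The deposited value of a gene in a sample was read as a signal on a linear scale, the power of 2 of a regularized log. That scale is inferred from the values. A regularized log already corrects for library size and draws weakly expressed genes towards their mean. If the scale is read rightly, folds of such genes are understated. The values hold no read counts, depth is unknown, and the precision of each value rests on 3 replicates. *Ltbr* itself had a mean signal of 24.6 ± 1.70 in *Ltbr*-/- cells against 545 ± 21.3 in Ly5.1 cells (SD, n = 3 each), so that it was low where labelled. All 11 listed HSC markers were tested, and their summed signal was 14005 to 14619 in *Ltbr*-/- and 16015 to 16288 in Ly5.1 samples, with 2 of them, *Ly6a* and *Meis1*, lower in limma. The B cell markers *Ms4a1*, *Ebf1* and *Pax5* and the T cell markers *Cd3d*, *Cd3e*, *Cd4* and *Cd8a* had signals under 15, while *Lck* was at 192 and 201 in the means of *Ltbr*-/- and Ly5.1 cells and did not pass the test. Other B cell markers were expressed and differed, *Ighm* (mean 658 against 1347) and *Igkc* (207 against 480) being lower and *Cd79a* (292 against 191) higher in *Ltbr*-/- cells, and the summed B cell signal was 1401 to 1535 against 2255 to 2419. Of 9 neutrophil markers 7 were lower, with a summed signal of 41851 to 42380 in *Ltbr*-/- against 55251 to 59438 in Ly5.1 samples. Of 6 tested mast cell markers 2 were higher, *Cma1* (mean 5470 against 2195) and *Cpa3* (1303 against 888). The sum over the 9 listed ones was 7096 to 7488 against 3427 to 4033, most of it from *Cma1*. *Mcpt8* (log2 difference -0.22), *Fcer1a* (-0.10), *Ms4a2* (-0.04) and *Gzmb* (0.06) did not pass, and *Mcpt4*, *Tpsb2* and *Tpsab1* were under 15. The summed erythroid signal was 4897 to 5229 in *Ltbr*-/- and 3795 to 4036 in Ly5.1 samples, with the hemoglobin gene *Hba-a1* 1.98-fold higher. Of 6 tested monocyte and macrophage markers 2 were higher and 1 lower, among them *Emr1*, 1.78-fold higher, and *Lyz2*, with a log2 difference of -0.42, and their sum was 6269 to 6989 against 6916 to 7406. Over all tested genes, 10.6% were higher and 4.18% lower in *Ltbr*-/- cells at an adjusted p under 0.05 in limma. The part of these marker shifts in the results that follow was not tested, and in bulk samples fewer cells of a type and less RNA per cell cannot be told apart.

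TGF-beta is secreted in a latent form and, once released, binds the receptor encoded by *Tgfbr2*, which recruits and phosphorylates the receptor encoded by *Tgfbr1*. The activated complex phosphorylates the proteins of *Smad2* and *Smad3*, which join that of *Smad4*, enter the nucleus and regulate target genes. The product of *Smad7* blocks the receptor, and those of *Ski* and *Skil* repress transcription at Smad-bound genes. In bone marrow, TGF-beta is known as a signal that keeps HSCs quiescent. These steps are governed largely by phosphorylation, which transcript levels do not show.

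The sequences before the starts of *Tgfb1* and *Smad3*, the members that passed the test, are shown so that their proximal promoters can be read. Each is the 250 bases ahead of the RefSeq start on GRCm38.p6, 5′ to 3′ on the strand of the gene, at chr7:25686752-25687001 on the plus strand for *Tgfb1* and at chr9:63757995-63758244 on the minus strand for *Smad3*. Capitals mark GC boxes, the letters GGGCGG on either strand, and in *Tgfb1* also a match to the kappaB motif at position -140 from the start.
Tgfb1: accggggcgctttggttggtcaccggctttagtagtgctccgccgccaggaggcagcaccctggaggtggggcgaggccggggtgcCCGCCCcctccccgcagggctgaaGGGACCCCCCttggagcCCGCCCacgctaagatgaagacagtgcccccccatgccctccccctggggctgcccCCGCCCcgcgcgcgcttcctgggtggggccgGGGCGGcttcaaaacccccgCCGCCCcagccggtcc
Smad3: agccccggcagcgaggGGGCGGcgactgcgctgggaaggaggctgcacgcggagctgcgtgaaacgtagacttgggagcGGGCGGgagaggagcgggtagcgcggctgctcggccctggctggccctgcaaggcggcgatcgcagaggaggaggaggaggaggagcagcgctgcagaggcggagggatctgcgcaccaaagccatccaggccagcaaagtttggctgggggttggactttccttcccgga

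Both sequences are rich in G and C, at 75.2% for *Tgfb1* and 69.2% for *Smad3*. In the window from 250 bases before to 50 after the start, *Tgfb1* held 6 GC boxes and *Smad3* held 2, as many as *Ski* (6) and 1 of the windows of *Tgfbr1* (2), which did not pass the test. A GC box, the letters bound by Sp1, was present in 35.7% of 32851 mouse promoter windows of that length. The kappaB motif, to which NF-kappaB proteins bind, was present in 8.46% of them, in the window of *Tgfb1* and in none of the other member windows. The CAGAC box, to which Smad proteins bind, was found in 49.6% of all windows. Among the members it was in the window of *Tgfbr2* and in 1 of the windows of *Tgfbr1*, but not in *Tgfb1*, *Smad3* or *Ski*. The palindrome GTCTAGAC was in 0.213% of windows and in no member's window. Windows were at hand for 5 of the 9 members, and not for *Smad2*, *Smad4*, *Smad7* and *Skil*. A match is a run of letters and not a measured binding site. The kappaB motif and the GC box were chosen for the search after the values had been seen.

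*Tgfb1*, the ligand, lies on chromosome 7 at 25687002 to 25705077. Its signal was 4857, 4953 and 5012 in *Ltbr*-/- replicates 1 to 3, and 3640, 3551 and 4389 in Ly5.1 replicates 1 to 3. All *Ltbr*-/- values lay above all Ly5.1 values, with Ly5.1 replicate 3 the nearest to them, and the Ly5.1 samples were the more scattered. Mean signals were 4941 ± 78.2 for *Ltbr*-/- and 3860 ± 460 for Ly5.1 cells (SD, n = 3 each), a 1.29-fold difference with a 95% interval of 1.15 to 1.44. On the log2 scale the difference was 0.36 (SE 0.08, adjusted p = 0.000827 from limma). The exact two-sided permutation test over the samples gave p = 0.1, the smallest value possible for 3 against 3. *Tgfb1* stayed past an adjusted p of 0.05 whichever sample was left out, with log2 differences from 0.31 to 0.46. It no longer passed when the upper 75% of names by mean signal were tested in place of the upper 50% (adjusted p = 0.0968 from limma), and quantile normalization lowered the difference to 0.23 (adjusted p = 0.0309).

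Megakaryocytes and platelets are rich in TGF-beta, and their 8 listed markers had a summed signal of 12535 to 13208 in *Ltbr*-/- and of 10047 to 11352 in Ly5.1 samples. Most of that sum came from *Itga2b*, with means of 11640 in *Ltbr*-/- and 9380 in Ly5.1 cells. Of the 6 markers tested, 4 had a log2 difference below 0 and 2 above 0. *Itga2b* was higher with a log2 difference of 0.31 and *Pf4* lower with -0.33, while *Ppbp* and *Gp6* had signals under 15. The part of such cells in the *Tgfb1* difference was not tested.

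**Figure D1:**
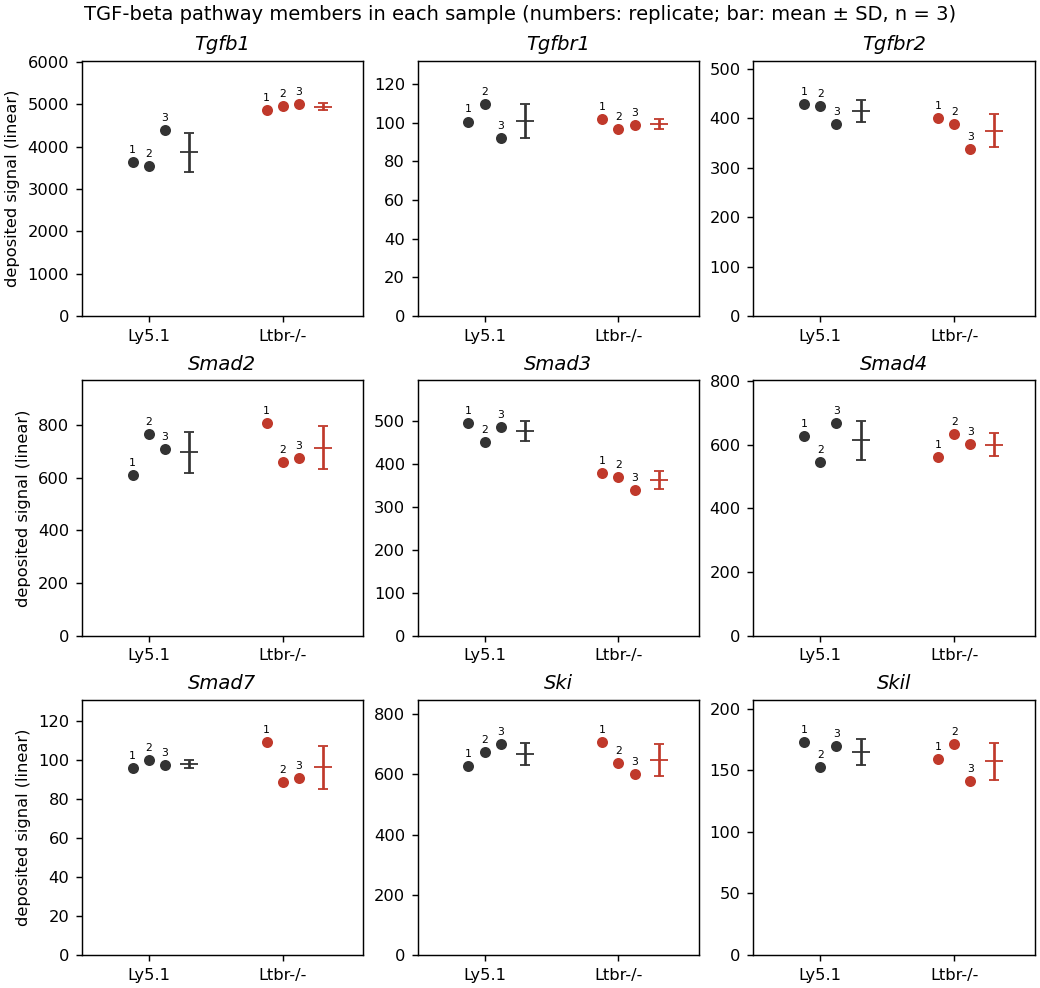
Deposited signal (linear scale, axes from 0) of the 9 genes in each of the 3 Ly5.1 samples (black) and 3 *Ltbr*-/- samples (red), numbered by replicate, with mean ± SD beside them. Only for *Tgfb1*, from 4857 to 5012 against 3551 to 4389, and *Smad3*, from 339 to 379 against 451 to 496, do the groups not overlap.

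The receptors did not pass the test. *Tgfbr2*, the ligand-binding receptor on chromosome 9 (116087695 to 116175363), had signals of 399.9, 388 and 338 in *Ltbr*-/- and of 429.8, 425 and 389 in Ly5.1 samples. The ranges overlapped, with *Ltbr*-/- replicate 3 the lowest of the 6. The log2 difference was -0.15 with a 95% interval of -0.34 to 0.05 (adjusted p = 0.333 from limma). *Tgfbr1*, the kinase that phosphorylates Smads, lies on chromosome 4 (47353222 to 47414926). Its signal was 102, 96.9 and 98.7 in *Ltbr*-/- and 101, 110 and 92.3 in Ly5.1 samples, so that all *Ltbr*-/- values fell within the Ly5.1 range. The log2 difference was -0.02 (95% interval -0.18 to 0.14, adjusted p = 0.905 from limma).

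*Smad3* was the member with the lower level in *Ltbr*-/- cells. It encodes a transducer that binds DNA and lies on chromosome 9 at 63646766 to 63757994. Its signal was 379, 369.98 and 339 in *Ltbr*-/- replicates 1 to 3 and 496, 451 and 487 in Ly5.1 replicates 1 to 3. The highest *Ltbr*-/- value lay below the lowest Ly5.1 value, and both groups were narrow. With means of 362 ± 21.0 and 478 ± 23.9 (SD, n = 3 each), *Ltbr*-/- cells had 0.758 times the signal of Ly5.1 cells, with a 95% interval of 0.665 to 0.865. On the log2 scale this was -0.40 (SE 0.09, adjusted p = 0.00209 from limma, exact permutation p = 0.1). The difference ranged from -0.44 to -0.35 when each sample was left out, and it had an adjusted p under 0.05 in all 16 alternative fits. The 16 include centring on ribosomal protein genes, under which most tested genes passed.

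*Smad2*, whose product is phosphorylated by the same receptor, lies on chromosome 18 (76241090 to 76311748). Its signal was 809, 661 and 674 in *Ltbr*-/- and 612, 768 and 711 in Ly5.1 samples. The groups overlapped, and the highest and the next to lowest values were both from *Ltbr*-/- cells. The log2 difference was 0.04 (95% interval -0.16 to 0.24, adjusted p = 0.858 from limma). *Smad4*, the partner common to both transducers, lies on chromosome 18 (73634790 to 73703791) and had signals of 562, 634 and 602 in *Ltbr*-/- and of 625, 546 and 668 in Ly5.1 samples. Its groups overlapped too, with a log2 difference of -0.03 (95% interval -0.22 to 0.16, adjusted p = 0.883 from limma).

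Ratios within a sample do not depend on a factor by which the whole sample was scaled, though quantile normalization can change them. They were computed after the values of the single genes had been seen and are given without a test. The ratio of the *Smad3* to the *Smad2* signal was 0.468, 0.559 and 0.502 in *Ltbr*-/- and 0.810, 0.587 and 0.685 in Ly5.1 samples. That of *Smad3* to *Smad4* was 0.674, 0.584 and 0.563 against 0.793, 0.825 and 0.729. Both ratios were lower in each *Ltbr*-/- sample than in any Ly5.1 sample, though for *Smad2* the gap between *Ltbr*-/- replicate 2 and Ly5.1 replicate 2 was small. The signal of *Tgfb1* relative to its receptor *Tgfbr2* was 12.1, 12.8 and 14.9 in *Ltbr*-/- and 8.47, 8.35 and 11.3 in Ly5.1 samples, with Ly5.1 replicate 3 again the nearest to the *Ltbr*-/- range.

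The inhibitors of the pathway did not pass the test either. *Smad7*, the inhibitory Smad on chromosome 18 (75367365 to 75395935), had signals of 109, 88.7 and 90.8 in *Ltbr*-/- and of 96.0, 100.2 and 97.3 in Ly5.1 samples. The 3 Ly5.1 values lay between those of *Ltbr*-/- replicate 1 and the other *Ltbr*-/- replicates, and the log2 difference was -0.03 (95% interval -0.20 to 0.13, adjusted p = 0.854 from limma). *Ski*, a corepressor on chromosome 4 (155154075 to 155222535), had signals of 707, 637 and 603 in *Ltbr*-/- and of 629.7, 674 and 703 in Ly5.1 samples. Its log2 difference was -0.05 (95% interval -0.23 to 0.14, adjusted p = 0.804 from limma), with overlapping groups. *Skil*, its relative on chromosome 3 (31095058 to 31122923), had signals of 159, 171 and 141 against 173, 153 and 169.5, which overlapped as well. The log2 difference of *Skil* was -0.07 (95% interval -0.26 to 0.11, adjusted p = 0.665 from limma). *Ltbr*-/- replicate 1 had the highest of the 6 values of *Smad2*, *Smad7* and *Ski*.

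Counted together, 0 of the 9 genes reached a 1.5-fold difference together with an adjusted p under 0.05 in limma, where 2.78% of all tested genes did. At an adjusted p under 0.05 alone the count was 2 of 9 (22.2%), and it was also 2 at an unadjusted p under 0.05. Over all tested genes 14.8% had an adjusted p under 0.05, 10.6% being higher and 4.18% lower in *Ltbr*-/- cells. The groups did not overlap for 2 of the 9 genes, again 22.2%, against 30.4% of all tested genes. The median log2 difference was -0.03 over the 9 genes and -0.01 over all tested genes. For the 7 genes that did not pass, the 95% intervals lay between -0.34 and 0.24 on the log2 scale, which leaves room for differences of up to 0.789-fold and 1.18-fold.

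Per kilobase of the longest transcript, *Tgfb1* was by far the most abundant member, with a signal of 2272 ± 36.0 in *Ltbr*-/- and of 1775 ± 212 in Ly5.1 cells. *Smad4* followed with 177 ± 10.6 and 181 ± 18.2 per kilobase, and *Ski* with 118 ± 9.59 and 121 ± 6.66. The next places were exchanged between the genotypes. *Smad2* had 88.4 ± 10.1 per kilobase and *Smad3* 71.2 ± 4.13 in *Ltbr*-/- cells, whereas in Ly5.1 cells *Smad3* had 93.9 ± 4.69 and *Smad2* 86.2 ± 9.77, which differed by less than their spread. *Tgfbr2* came next with 46.4 ± 4.09 and 51.3 ± 2.75 per kilobase. *Skil* (23.4 ± 2.24 and 24.6 ± 1.58) and *Smad7* (22.5 ± 2.61 and 22.9 ± 0.50) lay next to each other, within their spread in *Ltbr*-/- cells and apart by slightly more than the SD of *Skil* in Ly5.1 cells, and *Tgfbr1* was the least abundant, with 17.2 ± 0.45 and 17.5 ± 1.52. No window of 76 bases, the read length, in a member's transcript was shared with another gene, and no exon of a member overlapped one of another gene.

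**Figure D2:**
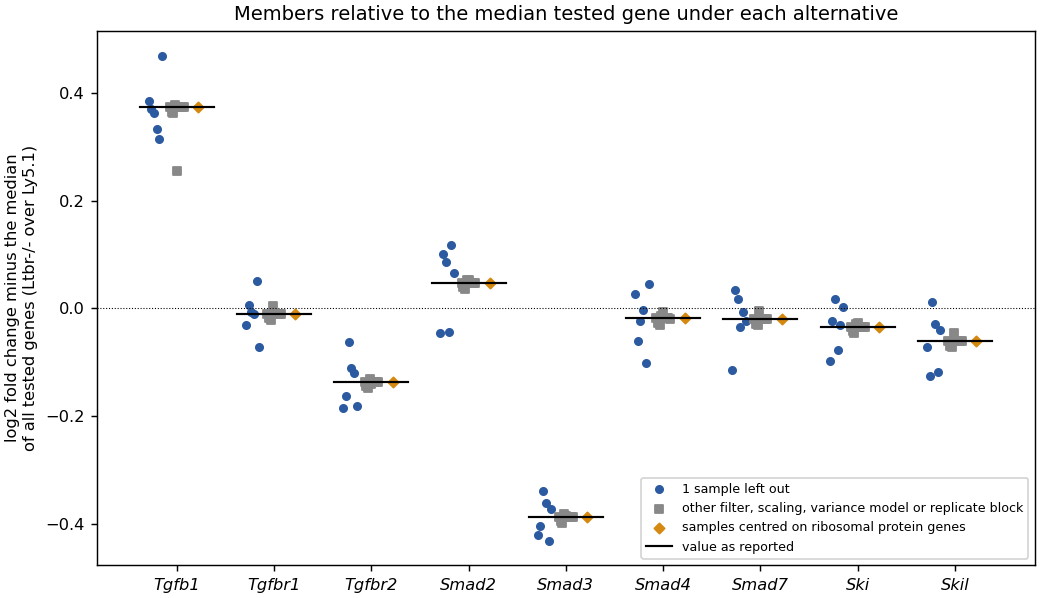
Log2 difference of each of the 9 genes (*Ltbr*-/- over Ly5.1) minus the median of all tested genes, as reported (bar) and with each sample left out (blue), other filters, scalings, variance models or the replicate block (grey), and samples centred on ribosomal protein genes (orange). *Tgfb1* stays above 0, from 0.26 upwards, and *Smad3* below 0 under each of them. Ribosomal centring moves all genes of a sample alike, so that the orange points equal the bar by construction. Before the median is subtracted, ribosomal centring turns *Tgfb1* and *Smad2* negative.

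The direction of a difference depends on the scale to which samples are set. When each sample was centred on its 82 tested genes with Rpl or Rps symbols, which were higher in *Ltbr*-/- cells on the deposited scale, the median of all tested genes moved to -0.89, all 9 members became lower and *Tgfb1* turned to -0.51. Such centring moves all genes of a sample by the same amount, so that differences relative to the median cannot change. Relative to the median *Tgfb1* was at 0.37 and *Smad3* at -0.39 on either scale.

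The 3 tested genes outside the lists whose log2 values followed *Tgfb1* most closely over the 6 samples were *Dbi* (Pearson r = 0.9983), which encodes an acyl-CoA-binding protein, *Ndufa4* (r = 0.9978), which encodes a mitochondrial respiratory chain protein, and LOC100861766 (r = 0.9972). These are descriptions over 6 samples that share their genotype difference and their libraries. In all, 863 tested genes besides *Tgfb1*, these 3 included, had an r above 0.9.

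Beyond the 9 genes, 86 genes of the TGF-beta and related pathways were examined, of which 55 were expressed highly enough to be tested. Of these, 12 (21.8%, against 14.8% of all tested genes) had an adjusted p under 0.05, 7 of them higher and 5 lower in *Ltbr*-/- cells, and 3 (5.45%, against 2.78%) also reached a fold of 1.5. The groups did not overlap for 22 of the 55 (40%, against 30.4%). The list was chosen with earlier results of these data known, so that these shares cannot be read as enrichment. The median log2 difference was -0.09, and 40 genes lay below 0. The 3 with the larger fold were *Ltbp4*, *Cdkn1a* and *Id1*, all of them higher. With each sample left out that count ran from 2 to 4, and *Id1* fell below the fold limit without *Ltbr*-/- replicate 2 (log2 0.54) and without Ly5.1 replicate 1 (0.48). The 12 became 7 without *Ltbr*-/- replicate 3, the lowest count with a sample left out, and 5 when the upper 75% of names were tested.

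Among other ligands, only *Inha*, the inhibin alpha subunit, was expressed highly enough to be tested, of 11 listed. Its log2 difference was -0.05 (95% interval -0.17 to 0.07, adjusted p = 0.662 from limma). *Tgfb1* was thus the one TGF-beta isoform among the genes tested.

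The genes that store and activate TGF-beta held the pathway's largest difference. Latent TGF-beta binding proteins tether the latent ligand to the extracellular matrix. *Ltbp4* on chromosome 7 (27305140 to 27339720) had signals of 932, 959.8 and 953 in *Ltbr*-/- and of 452, 520.2 and 523 in Ly5.1 samples. All *Ltbr*-/- values were far above the Ly5.1 values, a 1.91-fold difference (log2 0.93, SE 0.09, adjusted p = 2.83e-10 from limma) that ranged from 0.86 to 0.97 with samples left out. On ribosomal centring the difference was 0.06 (adjusted p = 0.681 from limma). Relative to the shifted median it was 0.94, a value that such centring cannot change. *Ltbp3*, its relative on chromosome 19, went the other way, with 1392, 1509 and 1382 in *Ltbr*-/- and 1839, 1692 and 1556 in Ly5.1 samples. These groups did not overlap either, but the gap was small, and the log2 difference of -0.25 (adjusted p = 0.0483 from limma) passed only narrowly. Leaving out any sample but Ly5.1 replicate 3 moved *Ltbp3* to between -0.29 and -0.19 with adjusted p-values from 0.0550 to 0.229. Within a sample, the ratio of *Ltbp4* to *Ltbp3* was 0.669, 0.636 and 0.690 in *Ltbr*-/- and 0.246, 0.307 and 0.336 in Ly5.1 samples. *Furin*, the protease that cleaves the TGF-beta precursor, was named after its values were seen. Its signals of 1498, 1671 and 1599 in *Ltbr*-/- lay above the 1320.2, 1175 and 1369.5 of Ly5.1 samples, with a log2 difference of 0.31 (adjusted p = 0.0130 from limma). Without *Ltbr*-/- replicate 2, *Ltbr*-/- replicate 3 or Ly5.1 replicate 2 it was 0.27, 0.30 and 0.24, with adjusted p-values of 0.0804, 0.0524 and 0.0899. With the upper 75% of names tested *Furin* did not pass either (adjusted p = 0.0984 from limma). *Tgfb1* and *Ltbp4* lie 1.6 Mb apart, and of the 9 tested genes between them 1 was higher at an adjusted p under 0.05, with a median log2 difference of -0.05.

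**Figure D3:**
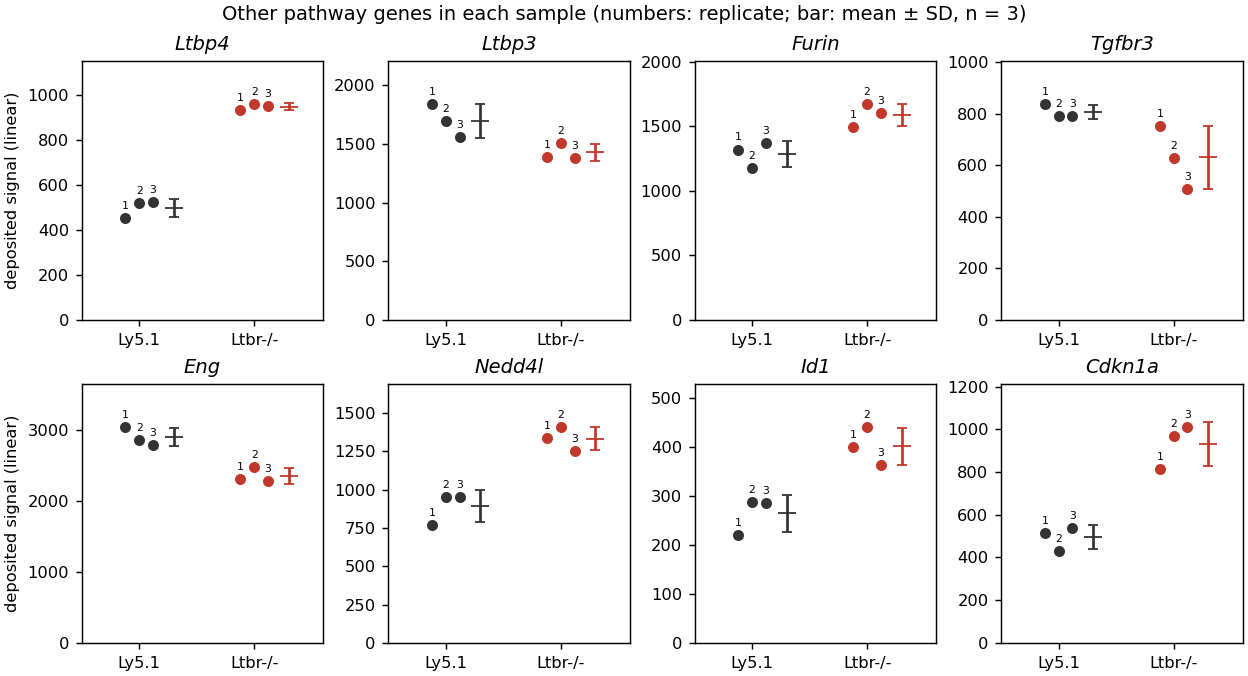
Deposited signal (linear scale, axes from 0) of 8 other pathway genes in each of the 3 Ly5.1 samples (black) and 3 *Ltbr*-/- samples (red), numbered by replicate, with mean ± SD. *Ltbp4*, *Furin*, *Nedd4l*, *Id1* and *Cdkn1a* are higher and *Ltbp3*, *Tgfbr3* and *Eng* lower in *Ltbr*-/- cells; on ribosomal centring *Furin*, *Nedd4l* and *Id1* turn negative.

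Of 7 tested receptors and co-receptors, 2 were lower and none higher (28.6%, against 14.8% of all tested genes in either direction). *Eng*, encoding endoglin, a co-receptor that is also used to mark HSCs, had signals of 2307, 2485 and 2279 in *Ltbr*-/- and of 3042, 2860 and 2796 in Ly5.1 samples. All *Ltbr*-/- values were below the Ly5.1 values, with a log2 difference of -0.30 (adjusted p = 0.00683 from limma). It had an adjusted p under 0.05 in all 16 alternative fits, among them ribosomal centring, under which most tested genes passed. *Tgfbr3*, the co-receptor betaglycan, was chosen after its values were seen. It had signals of 755, 630 and 509 in *Ltbr*-/- and of 838, 792 and 790 in Ly5.1 samples, and its *Ltbr*-/- values were widely spread below the Ly5.1 ones. Its log2 difference was -0.37 (adjusted p = 0.0112 from limma) and fell to -0.23 (adjusted p = 0.193) without *Ltbr*-/- replicate 3. *Tgfbr3* also did not pass when the upper 75% of names were tested (adjusted p = 0.254 from limma) or without the variance trend (0.0589). The gene of the activin receptor with the highest positive statistic, *Acvr2b*, was at 0.07 (adjusted p = 0.581). The median of the 7 was -0.23 and 6 lay below 0, as *Tgfbr1* and *Tgfbr2* did with values that did not pass. None of the 3 other tested Smads passed, and *Smad5*, a transducer of bone morphogenetic proteins, was at -0.12 (adjusted p = 0.410).

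Of 14 tested regulators of receptors and Smads, 2 were higher and none lower (14.3%, against 14.8% of all tested genes in either direction). *Nedd4l* encodes a ubiquitin ligase that targets activated Smad2 and Smad3 for degradation. Its signal was 1337, 1408 and 1255 in *Ltbr*-/- and 772, 951 and 956 in Ly5.1 samples, without overlap, with a log2 difference of 0.58 (SE 0.09, adjusted p = 8.27e-06 from limma) just short of the 1.5-fold limit. *Fkbp1a*, named after its values were seen, encodes a protein that binds the type I receptor and keeps it inactive in the absence of ligand. Its signals of 704, 757 and 704 in *Ltbr*-/- lay above the 537, 581 and 551 of Ly5.1 samples, with a log2 difference of 0.38 (adjusted p = 0.00279 from limma). *Trim33*, a ubiquitin ligase that acts on Smad4, had a log2 difference of -0.25 (adjusted p = 0.0523 from limma), and without Ly5.1 replicate 3 it was at -0.29 with an adjusted p of 0.0356. Of 14 nuclear partners and corepressors, 1 passed (7.14%, against 14.8% of all tested genes). That was *Rbl1*, a relative of the retinoblastoma protein, with a log2 difference of -0.25 (adjusted p = 0.0376 from limma). Leaving out any sample but Ly5.1 replicate 1 moved *Rbl1* to between -0.28 and -0.23, with adjusted p-values from 0.0567 to 0.145. *Tgif1*, a corepressor of Smad2, was at 0.22 (adjusted p = 0.153).

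**Figure D4:**
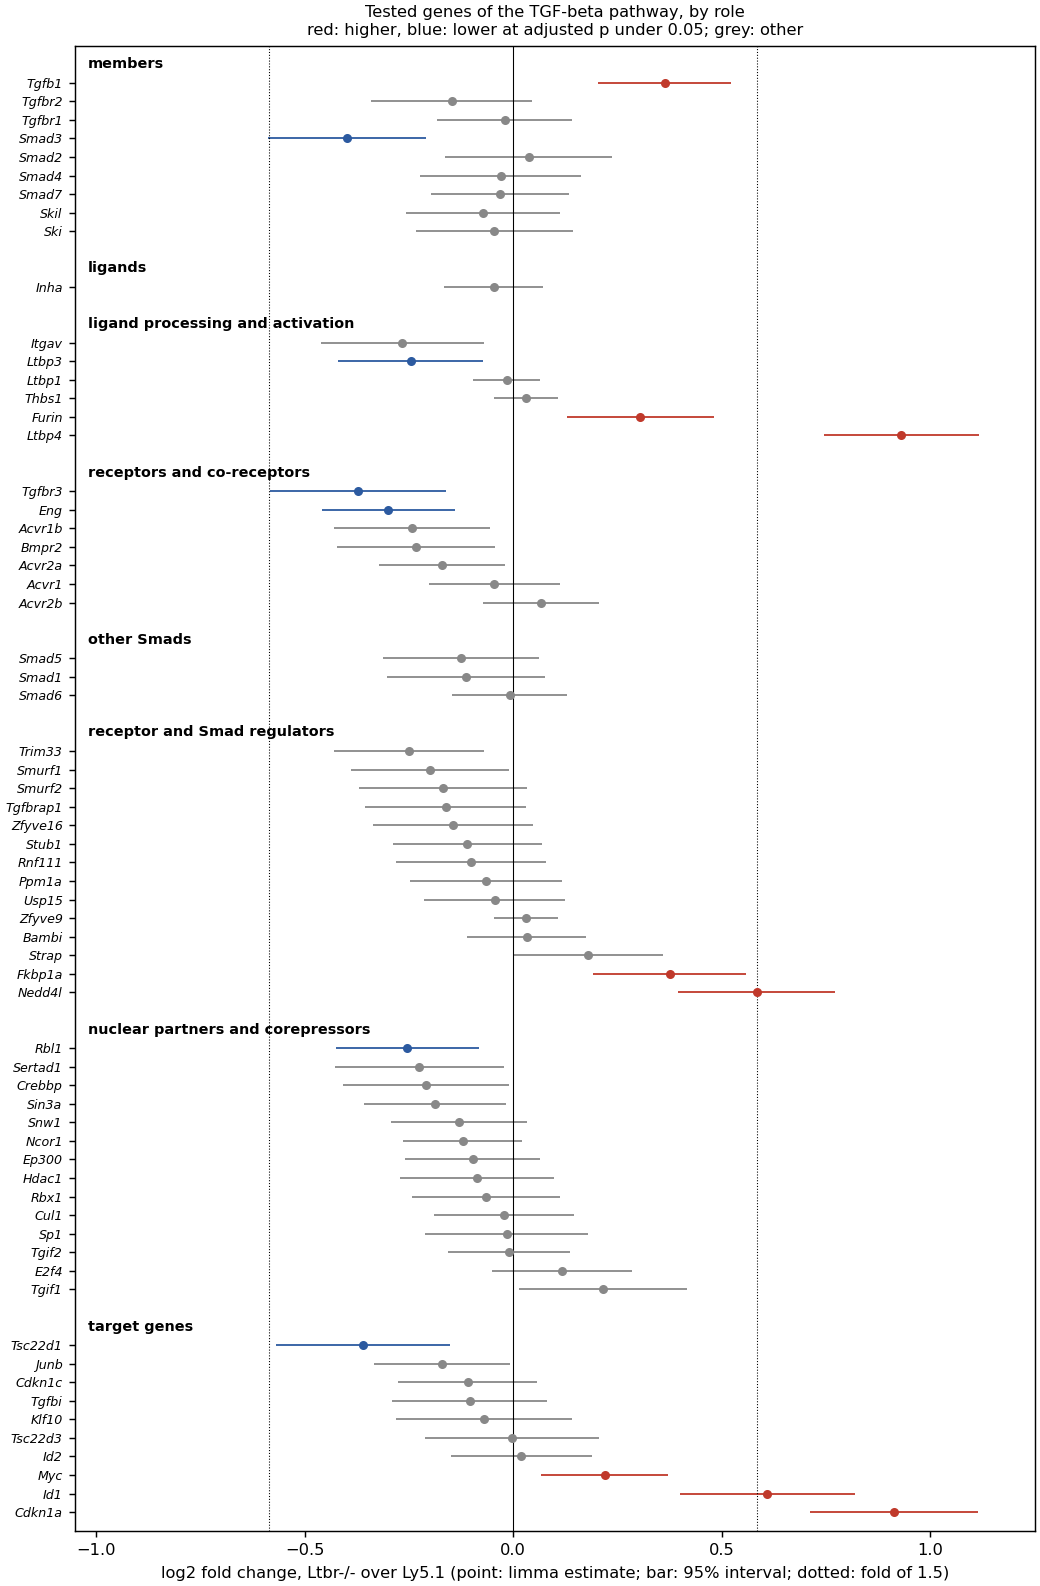
Log2 difference (*Ltbr*-/- over Ly5.1; limma estimate with 95% interval) of the 9 members and the 55 other tested pathway genes by role, with those at an adjusted p under 0.05 in red (higher) or blue (lower) and dotted lines at a fold of 1.5. *Ltbp4*, *Cdkn1a* and *Id1* lie beyond the upper line and no gene beyond the lower one; on ribosomal centring the red genes turn negative except *Ltbp4* (0.06) and *Cdkn1a* (0.04), which then no longer pass the test.

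Of 10 tested genes known as TGF-beta targets, 3 were higher and 1 lower (40% together, against 14.8% of all tested genes). The list holds genes that TGF-beta induces in some cells and represses in others. It was chosen with earlier results of these data known, so that its share cannot be read as enrichment. *Cdkn1a* encodes the cell cycle inhibitor p21. Its signal was 816, 967 and 1009 in *Ltbr*-/- and 515, 431 and 539 in Ly5.1 samples, without overlap, and the log2 difference was 0.91 (SE 0.10, adjusted p = 3.35e-09 from limma). On ribosomal centring it was 0.04 (adjusted p = 0.781 from limma), and 0.92 relative to the shifted median, a value that such centring cannot change. *Id1* encodes an inhibitor of basic helix-loop-helix factors. Its signals were 401, 441 and 364 in *Ltbr*-/- and 221, 288 and 286 in Ly5.1 samples, again without overlap (log2 0.61, adjusted p = 2.75e-05 from limma), and it did not pass when the upper 75% of names were tested (adjusted p = 0.0669). *Myc*, the growth regulator that TGF-beta represses in epithelial cells, was named after its values were seen. It had signals of 4029, 3937 and 4191 in *Ltbr*-/- and of 3373, 3350 and 3731 in Ly5.1 samples, with a log2 difference of 0.22 (adjusted p = 0.0443 from limma). That call was lost when any sample but Ly5.1 replicate 3 was left out, at 0.19 to 0.24 with adjusted p-values from 0.0844 to 0.177. *Tsc22d1*, first found as a gene stimulated by TGF-beta, had signals of 1146, 1074 and 861 in *Ltbr*-/- and of 1342, 1508 and 1107.5 in Ly5.1 samples, which overlapped. Its log2 difference of -0.36 (adjusted p = 0.0138 from limma) became -0.24 without *Ltbr*-/- replicate 3 and -0.26 without Ly5.1 replicate 2, with adjusted p-values of 0.188 and 0.140. *Tsc22d1* also did not pass when the upper 75% of names were tested (adjusted p = 0.304 from limma) or without the variance trend (0.0812).

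Some pathway genes share sequence or exons with others, and whether reads were counted by strand is not given in the sources used here. Exons of *Cdkn1a*, *Eng*, *Furin*, *Ltbp3* and *Nedd4l* overlap a gene on the opposite strand. Of the windows of 76 bases in the transcripts of *Tgfbr3*, 3.73% also occur in *Gm43422*, so that its value is the less certain.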

How the data were processed

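Per the methods of the study, stranded mRNA libraries were sequenced in single reads of 76 bases, and the authors used SeqMan NGen for assembly, ArrayStar for analysis and regularized log values as expression levels. The submitters' processing notes name GRCm38 (mm10) and DESeq2. The deposited signal (26595 rows per sample) was read as 2 to the power of that value, because it is positive and its log2 median over tested genes is 8.46 to 8.47 in each sample; this scale is inferred. Of repeated names the row with the highest mean was kept.

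The 13108 names in the upper 50% by mean were fitted on the log2 scale with limma 3.58.1 (lmFit, eBayes with a trend, R 4.3.3), without covariates or pseudocount, with Benjamini-Hochberg adjustment over all of them and a fold limit of 1.5. The model was tested on simulated data. Named genes were all members, each called pathway gene, and per role the tested gene with the largest moderated statistic in each direction. Members and lists were chosen with earlier results of these data known. Replicates were given as biological pools of chimeras. If same-genotype pools shared animals, p-values measure only the spread between these samples. Gene positions came from RefSeq and transcripts from GENCODE M21, both GRCm38.p6. The files give no counts, so no counting intervals or detection limits were computed. Alternatives were other filters, scalings, variance models, a replicate block, another fold limit, and leaving out each sample.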

Additional observations from a re-analysis of the deposited data

How the results depend on the processing

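Centring on ribosomal protein genes changed most results. With the 1.5-fold limit, 8 of the 9 members and 49 of the 55 tested pathway genes were then called, against 12005 of all 13108 tested genes. At an adjusted p under 0.05 alone the counts were 9 and 52, against 12830 of the 13108. Relative to the median of all tested genes, which moved to -0.89, the values were as reported by construction, since the centring moves all genes of a sample alike. Before that shift is removed, the log2 differences of *Tgfb1* (-0.51), *Smad2* (-0.84), *Acvr2b* (-0.81), *Fkbp1a* (-0.50), *Furin* (-0.57), *Id1* (-0.27), *Myc* (-0.66), *Nedd4l* (-0.29) and *Tgif1* (-0.66) reversed, and *Ltbp4* (0.06) and *Cdkn1a* (0.04) no longer passed. With the upper 75% of names tested, 1 member and 5 pathway genes passed the adjusted p, and 857 genes overall against 1936; the cause was not tested. A fold limit of 1.2 called 2 members. With each sample left out, 7 to 13 pathway genes passed the adjusted p and 2 to 4 were called. Small values near 0 changed sign in these fits, ranging from -0.083 to 0.042 for *Tgfbr1*, -0.055 to 0.11 for *Smad2*, -0.11 to 0.034 for *Smad4*, -0.12 to 0.024 for *Smad7*, -0.11 to 0.0068 for *Ski*, -0.14 to 0.0016 for *Skil* and -0.089 to 0.017 for *Inha*. The replicate block left 0 members called and 2 at the adjusted p, with 3 and 12 pathway genes. Deviations of same-numbered samples from their group means correlated at 0.0314, -0.0052 and 0.0899. Whether same-numbered samples came from the same chimeras is not given, and these values cannot settle it. With a filter to the upper 25%, *Tgfbr1*, *Smad7* and *Skil* were not tested. Of the log2 differences under an alternative, 338 kept their direction and side of the threshold, 39 fell short of it, 13 passed it and 19 reversed. The values hold no read counts, so that low signals cannot be told from absence.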
